A study of Mus musculus with 568 samples.

Results

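Surface, adhesion and membrane-linked proteins by which germ cells are recognised were followed through the in vitro germ line of the XRep mouse line by the expression of 9 genes: Kit, Cxcr4, Itgb3, Fut4, Pecam1, Epcam, Cdh1, Cdh2 and Ifitm3. They were taken by name, with earlier results of these data known. All 9 were found among the 16335 genes of the bulk RNA-seq table and among the 15718 genes of the single-cell table.

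The bulk data hold 4 groups of 4 libraries each: embryonic stem cells (ESCs; the line was kept in serum with LIF and moved to 2i/LIF before induction, and the medium of each ESC library is not stated), epiblast-like cells (EpiLCs) after 48 h and a further 48 h of induction, and day 5 primordial germ cell-like cells (PGCLCs) sorted as XGFP+ or XGFP-. All groups carry the same engineered genome. It is a female hybrid of 129S1/SvImJ and CAST/EiJ with a truncated Tsix on the musculus X, a GFP reporter on that X and a tdTomato reporter on the castaneus X, and the doxycycline activator rtTA at Rosa26 with inducible Prdm1 (Blimp1), Prdm14 and Tfap2c transgenes. PGCLCs were grown in doxycycline for 5 days and sorted for SSEA1, CD61 and XTomato, together with the presence or absence of XGFP, whereas ESCs and EpiLCs were not sorted. CD61 is the protein of Itgb3 and SSEA1 is a fucosylated sugar of the kind that the Fut4 enzyme makes, so the gate selected on both. The single-cell data hold 4 sorted populations from reconstituted ovaries (rOvaries), in which PGCLCs were cultured for 6 days with E13.5 female somatic cells of gonad and mesonephros. These somatic cells came from CD1/ICR mice and had been depleted of SSEA1+ and CD31+ cells. CD31 is the protein of Pecam1. XGFP+ constitutive cells came from XGFP+ PGCLCs, and XGFPhigh, XGFPintermediate and XGFPlow cells came from XGFP- PGCLCs and were gated as XTomato+ by their XGFP intensity. The study's text speaks in one place of different clones sequenced in technical replicates and in a legend of biological replicates, and the labels do not give the clone of a library, so n counts libraries and not separate cultures, and the p-values below may measure technical spread in part.

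Primordial germ cells arise in the epiblast, leave it for the hindgut and migrate to the gonadal ridge. The receptor tyrosine kinase KIT and the chemokine receptor CXCR4 receive the survival and guidance signals that somatic cells give along this path, while cadherins, EPCAM, PECAM1 and integrins hold germ cells to each other and to the matrix. IFITM3, also called Fragilis, is a small membrane protein that marks the first germ cell precursors, and CD61 and SSEA1 are the usual pair of markers with which PGCLCs are isolated.

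In the mm10 (GRCm38) mouse genome, Kit (ENSMUSG00000005672) lies at chr5:75574916-75656722 on the + strand and Cxcr4 (ENSMUSG00000045382) at chr1:128588199-128592293 on the - strand. Both Itgb3 (ENSMUSG00000020689, chr11:104608000-104670476, + strand) and Pecam1 (ENSMUSG00000020717, chr11:106654217-106750628, - strand) are on chromosome 11. Fut4 (ENSMUSG00000049307) lies at chr9:14748320-14752393 on the - strand, Epcam (ENSMUSG00000045394) at chr17:87635979-87651129 on the + strand, and Ifitm3 (ENSMUSG00000025492) at chr7:141009586-141010770 on the - strand. The cadherin genes Cdh1 (ENSMUSG00000000303, chr8:106603351-106670246, + strand) and Cdh2 (ENSMUSG00000024304, chr18:16588877-16809246, - strand, overlapping the antisense gene Gm15485 without a shared exon) are on chromosomes 8 and 18. None of the 9 genes is X-linked. Stretches of 75 bases shared with the transcripts of another gene made up 0.662% of those in Ifitm3 (shared with Gm7676), 0.11% of those in Pecam1 and 0% of those in the other members.

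The sequences around the start sites of Kit, Cxcr4 and Epcam are shown because these genes took opposite courses: Kit and Cxcr4 were far higher in PGCLCs than in EpiLCs, while Epcam was highest in EpiLCs. RefSeq promoter windows on GRCm38.p6, from 250 bases before to 50 bases after the start, matched 5 of the 9 members (Kit, Cxcr4, Fut4, Epcam and Ifitm3). In the lines below, capitals mark GCCNNNGGC (a motif bound by TFAP2 factors, the family of the Tfap2c transgene), GGGCGG (a GC box) and CACCTG (an E-box bound by SNAI and ZEB repressors), searched on both strands and reported in the gene's direction. No capital stretch overlaps another.

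Kit (chr5:75574737-75575036, + strand): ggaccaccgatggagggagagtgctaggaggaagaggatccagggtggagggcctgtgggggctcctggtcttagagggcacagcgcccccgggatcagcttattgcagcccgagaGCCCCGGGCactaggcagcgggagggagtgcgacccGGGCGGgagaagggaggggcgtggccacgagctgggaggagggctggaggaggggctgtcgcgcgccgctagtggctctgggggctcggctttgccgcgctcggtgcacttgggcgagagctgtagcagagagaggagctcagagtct
Cxcr4 (chr1:128592250-128592549, - strand): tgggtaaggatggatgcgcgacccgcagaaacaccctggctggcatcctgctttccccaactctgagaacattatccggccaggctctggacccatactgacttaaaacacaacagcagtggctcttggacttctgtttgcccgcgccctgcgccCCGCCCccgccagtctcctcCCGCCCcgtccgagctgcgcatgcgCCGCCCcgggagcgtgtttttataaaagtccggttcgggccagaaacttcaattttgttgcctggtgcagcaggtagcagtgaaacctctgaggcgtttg
Epcam (chr17:87635729-87636028, + strand): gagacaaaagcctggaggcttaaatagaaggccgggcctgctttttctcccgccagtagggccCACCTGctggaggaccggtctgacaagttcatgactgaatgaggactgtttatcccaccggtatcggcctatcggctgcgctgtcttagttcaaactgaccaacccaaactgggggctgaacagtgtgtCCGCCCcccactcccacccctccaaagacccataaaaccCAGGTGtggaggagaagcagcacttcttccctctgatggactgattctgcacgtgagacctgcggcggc

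The Kit window held 1 TFAP2 motif and, nearer to the start, 1 GC box at 98 bases before it. The Cxcr4 window held 3 GC boxes, at 95, 75 and 50 bases before the start, and the Epcam window held 1 GC box at 58 bases and 2 E-boxes at 187 and 19 bases before the start. Of the 32851 mouse promoter windows of this length, 16.6% held the TFAP2 motif, 35.7% the GC box and 20.2% the E-box. Kit and Cxcr4 each had 20 CG pairs in the window, Fut4 had 18, Epcam had 11 and Ifitm3 had 5, against a median of 7 over all windows. The Fut4 window held 1 TFAP2 motif at 26 bases before the start and 1 E-box farther upstream, and the Ifitm3 window held 1 GC box at 42 bases. A match is a stretch of letters and was not tested as a binding site.

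Bulk libraries held between 29778299 and 46533858 reads, and all values below are read counts divided by the authors' size factor for each library (normalized counts). Naive and epiblast markers separated the groups: summed naive markers ranged from 126113 to 142224 normalized counts in ESCs and from 2590.2 to 6602 in EpiLCs, and summed epiblast markers from 51893 to 60664 in EpiLCs against 931 to 1846 over the PGCLC libraries. The summed list of 9 germ cell markers, which holds pluripotency genes such as Nanog, did not single out PGCLCs: it was highest in ESCs (64648 to 70849), lowest in EpiLCs (31637 to 34124), and at 53968 to 59585 in XGFP+ and 51820 to 53572 in XGFP- PGCLCs. Each of 16281 genes was fitted by limma-trend, as log2 of the normalized count plus a pseudocount of 1, with the 16 libraries in 1 model, and called at a false discovery rate (FDR) below 0.001. The 6 comparisons share groups with each other, and a lower bulk count cannot be divided between fewer cells of a type and less RNA per cell.

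**Figure D1:**
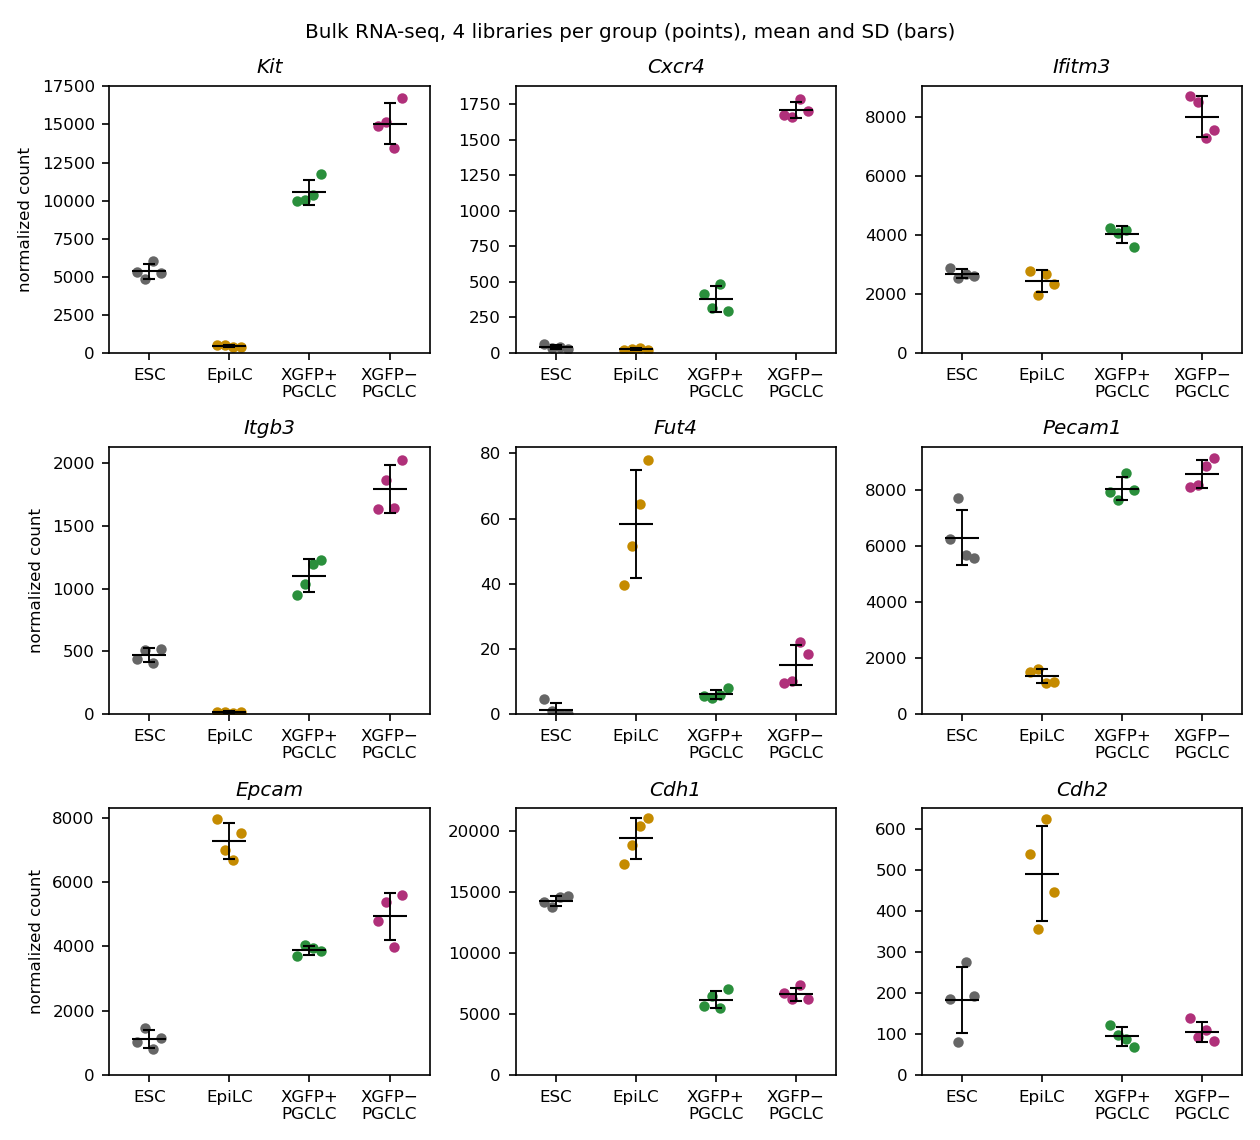
Normalized counts of the 9 genes (linear axis from 0, a scale of its own in each panel) in the 4 ESC, 4 EpiLC, 4 XGFP+ PGCLC and 4 XGFP- PGCLC libraries; points are libraries, long bars group means and error bars the SD. Cxcr4 lies at 17.8 to 61.7 in ESCs and EpiLCs and at 1661 to 1791 in XGFP- PGCLCs, while Epcam is highest in EpiLCs (6685 to 7953).

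From ESCs to EpiLCs, 7 of the 9 genes were called, against 47.8% of all genes tested: Fut4, Epcam, Cdh1 and Cdh2 rose, Kit, Itgb3 and Pecam1 fell, and Cxcr4 and Ifitm3 were not called. From EpiLCs to PGCLCs the pattern turned over. Leaving out Itgb3, on whose protein the PGCLCs were sorted, all 8 remaining genes were called in XGFP- PGCLCs (61.9% of all genes) and all 8 in XGFP+ PGCLCs (57.3% of all genes). Kit, Cxcr4, Pecam1 and Ifitm3 rose and Fut4, Epcam, Cdh1 and Cdh2 fell in both. Fut4 was kept in these counts and in those against ESCs, although the gate on SSEA1 selected a sugar that its enzyme can make. Between the PGCLC populations 3 of 9 genes were called (23.8% of all genes), Kit, Cxcr4 and Ifitm3, all of them higher in XGFP- PGCLCs. Against ESCs, 6 of 8 genes were called in XGFP+ PGCLCs (49.9% of all genes) and 6 of 8 in XGFP- PGCLCs (59.4% of all genes). In each, Kit, Cxcr4, Fut4, Epcam and Ifitm3 were higher, Cdh1 was lower, and Pecam1 and Cdh2 were not called.

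The sizes of these changes were above those of a typical gene, in a list drawn up with earlier results of these data known. The median absolute log2 fold change of the counted members was 2.23 from ESCs to EpiLCs, 2.06 from EpiLCs to XGFP- PGCLCs and 2.48 from EpiLCs to XGFP+ PGCLCs, where the median over all genes tested was 0.48, 0.71 and 0.63. Between XGFP- and XGFP+ PGCLCs it was 0.51 against 0.29 over all genes, and the libraries of the 2 populations did not overlap for 5 of the 9 genes, beside 45.7% of all genes tested. Per kilobase of exon, the order of levels in XGFP- PGCLCs was Ifitm3 (11821 normalized counts per kb), Epcam (2252), Kit (1689.7), Cdh1 (1449.8), Pecam1 (1374), Cxcr4 (945), Itgb3 (304), Cdh2 (13.1) and Fut4 (3.7). Cdh2 and Fut4 thus stood far below the other 7 genes in both PGCLC populations (11.7 and 1.49 per kb in XGFP+ PGCLCs). Itgb3, on whose protein the PGCLCs were sorted, remained below Kit on this scale.

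**Figure D2:**
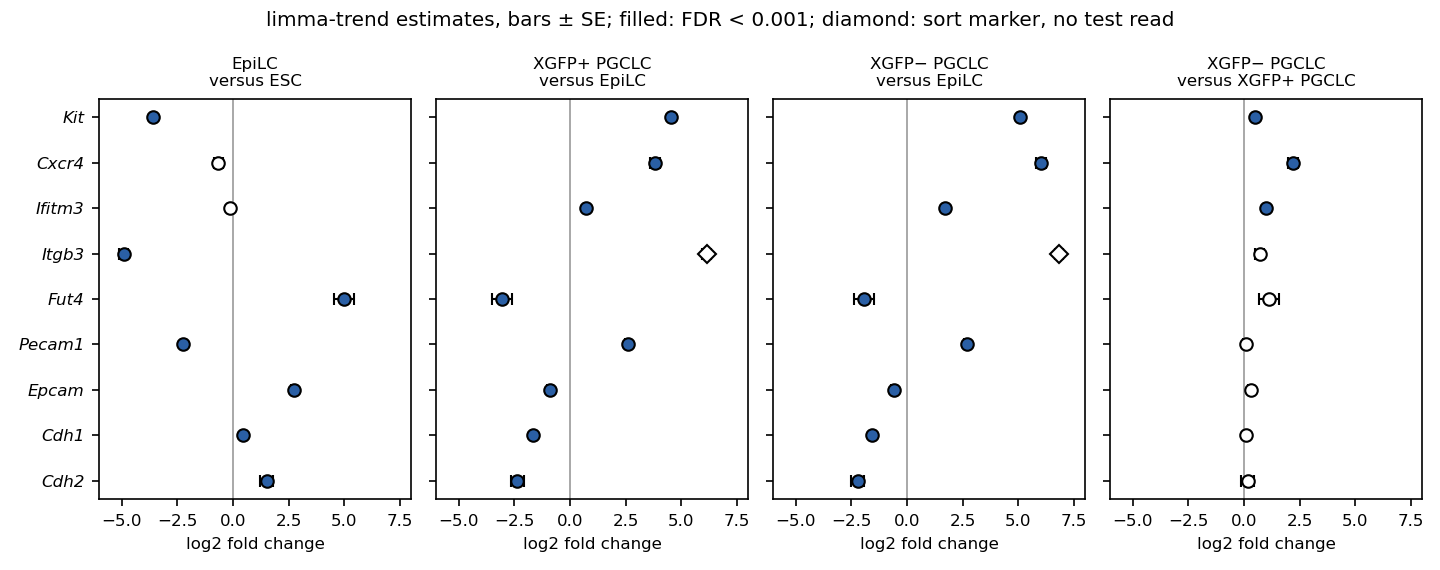
Log2 fold change (horizontal axis) of the 9 genes (rows) from limma-trend with its standard error, for EpiLCs against ESCs, each PGCLC population against EpiLCs, and XGFP- against XGFP+ PGCLCs; filled circles have an FDR below 0.001. A diamond marks Itgb3 where sorted PGCLCs are set against unsorted EpiLCs, and between the PGCLC populations Cxcr4 lies farthest from 0 (log2 2.20).

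Kit, the receptor of KIT ligand, was counted 5287, 4831, 6062 and 5226 times in the ESC libraries and 498, 506, 372 and 425 times in the EpiLC libraries. It reached 9996, 10019, 10403 and 11739 in XGFP+ PGCLCs and 14926, 15168, 13429 and 16706 in XGFP- PGCLCs. The 4 groups did not overlap, and each step in the order XGFP- PGCLC, XGFP+ PGCLC, ESC, EpiLC was called. Kit fell by 3.57 ± 0.09 (SE) on the log2 scale from ESCs to EpiLCs (limma FDR 7.31e-16), and rose from EpiLCs by 4.55 ± 0.09 in XGFP+ PGCLCs (FDR 6e-17) and by 5.07 ± 0.09 in XGFP- PGCLCs (FDR 6.92e-18). The difference between the PGCLC populations was small, a log2 fold change of 0.51 ± 0.09 (limma FDR 0.000217). This last call was lost when XGFP+ replicate 1 or 2 or XGFP- replicate 4 was left out, with limma FDR 0.00106, 0.00113 and 0.00111, and the fold change was then between 0.46 and 0.49.

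Of the 7 genes listed as KIT ligand and adaptors, 2 were called between XGFP- and XGFP+ PGCLCs, beside 23.8% of all genes. Kitl, which codes for the ligand, was lower in XGFP- PGCLCs (30.2 ± 4.02 SD against 92.8 ± 44.5, n = 4 each; log2 fold change -1.46, limma FDR 0.000393). Gab2, a docking protein below KIT and other receptors, was higher (1798 ± 83.8 against 985.6 ± 77.4, n = 4 each; log2 0.87, limma FDR 5.15e-05). Gab2 was at 48.6 ± 10 in ESCs and 23.4 ± 3.56 in EpiLCs, so it was low in unsorted cells and high in PGCLCs of either kind (log2 6.22 and 5.35 above EpiLCs). Pik3r1, a regulatory subunit of PI3 kinase, was lower in XGFP- PGCLCs (112.3 ± 17.5) and XGFP+ PGCLCs (169 ± 46.7) than in EpiLCs (1042 ± 145).

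Cxcr4, the receptor of CXCL12, showed the widest separation of the PGCLC populations. Its normalized counts were 61.7, 37.5, 42.1 and 27.1 in ESCs, 23.8, 29.7, 32.8 and 17.8 in EpiLCs, 418, 315, 487 and 298 in XGFP+ PGCLCs and 1679, 1661, 1791 and 1707 in XGFP- PGCLCs. ESC and EpiLC libraries overlapped and were not called apart (log2 -0.65 ± 0.22, limma FDR 0.0138). Every PGCLC library lay above every ESC and EpiLC library, and every XGFP- library above every XGFP+ library. The log2 fold change of XGFP- over XGFP+ PGCLCs was 2.20 ± 0.22 (limma FDR 2.32e-07), or 4.58-fold, and over EpiLCs it was 6.02 ± 0.22 in XGFP- and 3.82 ± 0.22 in XGFP+ PGCLCs (FDR 2.8e-14 and 1.82e-11). The 4 endothelial marker genes in the table, a cell type that also uses Cxcr4, summed to 530.3 to 638 normalized counts in XGFP- and 248 to 314 in XGFP+ PGCLCs. The same sum was 570 to 641 in ESCs, where Cxcr4 was low, and 223 to 408 in EpiLCs. Between the PGCLC populations 1 of the 4 was called (Cdh5, 194 ± 40.5 against 48.8 ± 6.27, n = 4 each), and none of the 4 was at 0 in every library. The part of these genes in the Cxcr4 result was not tested.

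The ligand and the second receptor of this pathway were low in bulk cells, and are named although their mean level lies under the limit set for naming a gene. Cxcl12 was at 85.8 ± 26.4 in XGFP- PGCLCs and 11.4 ± 7.95 in XGFP+ PGCLCs (n = 4 each; log2 3.02, limma FDR 7.56e-05), and was highest in EpiLCs (225 ± 14.1). Ackr3, which codes for a receptor that takes CXCL12 out of circulation, was at 59.5 ± 8.1 in XGFP- and 102.5 ± 14.3 in XGFP+ PGCLCs (limma FDR 0.00546, not called). Ackr3 was called lower in EpiLCs (11.6 ± 3.6) than in ESCs (164 ± 36.9).

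Itgb3, the integrin subunit detected as CD61, was counted 442, 509.9, 407 and 519 times in ESCs and 19, 18.8, 7.95 and 15.8 times in EpiLCs, a fall by 4.91 ± 0.19 on the log2 scale (limma FDR 1.15e-13). Sorted XGFP+ PGCLCs had 951, 1034, 1199 and 1227 and sorted XGFP- PGCLCs 1634, 1868, 1644 and 2029. PGCLCs lay above ESCs and EpiLCs in every library, which the gate on CD61 cannot be told apart from. Between the PGCLC populations, both gated alike, the libraries did not overlap and the log2 fold change was 0.70 ± 0.19 in favour of XGFP- PGCLCs, but limma-trend did not call it (FDR 0.00528). The call turned with the test: edgeR and DESeq2 on the recovered read counts gave an FDR of 7.13e-05 and 5.26e-09, limma on these 2 groups alone 9.78e-05, and limma with a pseudocount of 10 gave 0.000421.

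Among other integrin subunits most calls lay in the opposite direction to the Itgb3 values. Of 9 tested, 5 were called between XGFP- and XGFP+ PGCLCs, 1 higher and 4 lower, beside 23.8% of all genes. Itga6, a laminin receptor subunit, was at 739.5 ± 148 in XGFP- and 2122 ± 54.3 in XGFP+ PGCLCs (log2 -1.54, limma FDR 2.41e-09). Itga9 was at 42 ± 10.5 and 319.5 ± 77.4 (log2 -2.89, FDR 3.18e-09). Itgav, whose product pairs with that of Itgb3 in the vitronectin receptor, was also lower in XGFP- PGCLCs (2360 ± 191 against 3852 ± 652; log2 -0.70, FDR 0.000123), and so was Itga5, a fibronectin receptor subunit (450.6 ± 76 against 789.5 ± 81.5; log2 -0.82). The 1 that was higher was Itgb8 (192 against 23 on average; log2 3.04).

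Fut4, a fucosyltransferase that can build SSEA1, was low in the libraries sorted for SSEA1. Its normalized counts were 5.44, 5.01, 5.74 and 8.06 in XGFP+ PGCLCs and 9.53, 10.2, 22.1 and 18.6 in XGFP- PGCLCs, against 39.6, 51.4, 64.6 and 78 in EpiLCs and 4.49, 0.988, 0 and 0 in ESCs. These values rest on 25, 62, 246 and 5 reads in all. EpiLCs thus had more Fut4 than any other group in every library, with a fall by 3.05 ± 0.46 to XGFP+ PGCLCs (limma FDR 7.45e-06) and by 1.92 ± 0.46 to XGFP- PGCLCs (FDR 0.00084) on the log2 scale. The second of these calls was lost without XGFP- replicate 1, 2 or 4 or any 1 EpiLC replicate, with limma FDR between 0.00101 and 0.00396, and with the replicate number as a block (0.00198). No fold is given against ESCs, and the call there of XGFP+ PGCLCs (FDR 0.00096) was lost with edgeR (0.0135), with DESeq2 (0.00763), with the replicate block (0.00222) and without any single library but ESC replicate 1 (0.00193 to 0.00466). The XGFP- and XGFP+ libraries did not overlap, with a log2 difference of 1.12 ± 0.46 that was not called (limma FDR 0.0496).

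Fut9, a fucosyltransferase that also builds SSEA1, took the other course. It was at 1647 ± 269.7 in ESCs, 579.8 ± 60.7 in EpiLCs, 2769 ± 1016 in XGFP+ PGCLCs and 3160.4 ± 769.5 in XGFP- PGCLCs (n = 4 each), with log2 fold changes over EpiLCs of 2.19 and 2.42 (limma FDR 1.16e-08 and 2.18e-09). PGCLCs were sorted on SSEA1 and EpiLCs were not, so this rise of Fut9 cannot be told apart from the gate. Fut10 rose as well, to 1019 ± 120 in XGFP+ and 2315 ± 75.1 in XGFP- PGCLCs from 428 ± 102.8 in EpiLCs, and was the 1 gene of the 6 other fucosyltransferases tested that was called between the PGCLC populations (log2 1.19, FDR 4.39e-07), beside 23.8% of all genes.

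Pecam1, the adhesion molecule CD31 of endothelial, blood, stem and germ cells, was counted 6226, 7690.5, 5669.7 and 5554 times in ESCs and 1502, 1619, 1112 and 1143 times in EpiLCs. It returned to 7919, 7639.9, 8603 and 7989 in XGFP+ PGCLCs, and XGFP- PGCLCs had 8097, 8176, 8839 and 9122. EpiLCs stood alone at the bottom, with log2 changes of -2.23 ± 0.11 from ESCs, 2.60 ± 0.11 to XGFP+ PGCLCs and 2.69 ± 0.11 to XGFP- PGCLCs (limma FDR 3.33e-12, 3.91e-13 and 1.58e-13). The PGCLC populations overlapped, with a log2 difference of 0.09 ± 0.11 (FDR 0.535). Against ESCs neither population was called (log2 0.37 and 0.46, FDR 0.00725 and 0.00119), and both were called once ESC replicate 2 was left out (FDR 0.000774 and 0.000121; XGFP- PGCLCs also with DESeq2, 0.000369). In the same libraries, the blood marker Gata1 was at 0 in all XGFP- PGCLCs and summed to at most 2.5 normalized counts in XGFP+ PGCLCs.

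Epcam, an epithelial adhesion molecule also carried by germ cells, ran opposite to Pecam1. It was counted 1017, 1466, 820.2 and 1162 times in ESCs, 7953, 7000.3, 6685 and 7523 times in EpiLCs, 3707, 4035, 3953 and 3851 times in XGFP+ PGCLCs and 4800.0, 5382, 3979 and 5610.1 times in XGFP- PGCLCs. The rise from ESCs to EpiLCs was 2.73 ± 0.13 on the log2 scale (limma FDR 1.78e-12). PGCLCs lay between: they were below EpiLCs by 0.90 ± 0.13 (XGFP+) and 0.57 ± 0.13 (XGFP-) and remained 1.83 ± 0.13 and 2.17 ± 0.13 above ESCs (FDR 6.02e-10 and 2.85e-11). The XGFP- call against EpiLCs (FDR 0.000639) was lost without XGFP- replicate 1 or 3 or EpiLC replicate 1, 2 or 4 (0.00142 to 0.0035). XGFP- and XGFP+ libraries overlapped and were not called apart (log2 0.33 ± 0.13, FDR 0.0418).

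Cdh1, the E-cadherin gene, ranged from 13800.0 to 14685 in ESCs and from 17336 to 21126 in EpiLCs, and from 5531 to 7363 over the 8 PGCLC libraries. It rose from ESCs to EpiLCs by 0.44 ± 0.08 on the log2 scale (limma FDR 7.09e-05) and fell from EpiLCs by 1.66 ± 0.08 in XGFP+ and 1.55 ± 0.08 in XGFP- PGCLCs (FDR 1.38e-12 and 2.23e-12). Cdh1 was the only member of the counted 8 that was called lower in PGCLCs than in ESCs, by 1.22 ± 0.08 in XGFP+ and 1.11 ± 0.08 in XGFP- PGCLCs on the log2 scale (limma FDR 1.52e-10 and 2.62e-10). The PGCLC populations did not differ beyond their spread (log2 0.10 ± 0.08, FDR 0.293). Cdh2, the N-cadherin gene, ranged from 80 to 277 in ESCs, 356 to 624 in EpiLCs, 68.1 to 122.4 in XGFP+ and 82.5 to 138.7 in XGFP- PGCLCs. Cdh2 was higher in EpiLCs than in ESCs by 1.51 ± 0.29 on the log2 scale (FDR 0.000142) and fell from EpiLCs by 2.37 ± 0.29 and 2.20 ± 0.29 (FDR 5.89e-07 and 1.31e-06). Against ESCs Cdh2 was not called (FDR 0.0134 and 0.0382), and was called lower in both populations without ESC replicate 2 (log2 -1.21 and -1.04, FDR 0.000126 and 0.000435). Cdh1 and Cdh2 thus moved in the same direction from EpiLCs. Cdh3 (P-cadherin), from the list of other cadherins and catenins, had the opposite course: ESCs had 1360.2 ± 163 and EpiLCs 1772 ± 129, while XGFP+ PGCLCs had 9574 ± 854 and XGFP- PGCLCs 10866 ± 339 (log2 2.43 and 2.62 above EpiLCs, FDR 1.06e-14 and 2.47e-15). The difference from EpiLCs was smaller for Ctnnd1, the gene of the cadherin partner p120 catenin, at -0.79 in XGFP+ and -0.45 in XGFP- PGCLCs on the log2 scale.

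Ifitm3 was the most abundant of the 9 per kilobase in PGCLCs. It was counted 2893, 2534, 2677 and 2627 times in ESCs, 2791, 1959, 2667 and 2356 times in EpiLCs, 4241, 4054, 4184 and 3612 times in XGFP+ PGCLCs and 8705, 8518, 7282 and 7555 times in XGFP- PGCLCs. ESCs and EpiLCs overlapped (log2 -0.15 ± 0.09, FDR 0.173). XGFP- PGCLCs stood above XGFP+ PGCLCs in every library, by 0.99 ± 0.09 on the log2 scale or 1.99-fold (limma FDR 1.06e-07), and above EpiLCs by 1.72 ± 0.09 (FDR 5.28e-12). XGFP+ PGCLCs were above EpiLCs by 0.73 ± 0.09 (FDR 9.75e-07). Ifitm1, another gene of the Ifitm cluster, was also higher in XGFP- (12101 ± 1041) than in XGFP+ PGCLCs (7565 ± 339; log2 0.67, FDR 6.54e-07), but unlike Ifitm3 it fell from ESCs (4009 ± 373) to EpiLCs (958 ± 66.7). It alone of the 4 other Ifitm genes tested was called between the PGCLC populations, beside 23.8% of all genes.

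Across the 16 libraries the profiles of Kit and Itgb3 were each other's nearest among 11597 genes with a mean above 100 (Pearson's r 0.997 of log2 counts). The next for Kit was Tfap2c (r 0.996), whose counts in PGCLCs may include reads of the doxycycline-driven transgene, and for Itgb3 it was Brca1 (0.995). Pecam1 lay nearest to Tmem231 (0.992) and to Il6st, which codes for the gp130 receptor of LIF (0.991), Cxcr4 to Rnf214 (0.993) and Slc25a26 (0.990), and Ifitm3 to Zfp667 (0.975) and Pls3 (0.973). Epcam lay nearest to Bspry (0.989) and Cldn6 (0.984), Cdh1 to Eif4g2 (0.994) and Tssc4 (0.990), Cdh2 to Pfn1 (0.961) and Arfip2 (0.960), and Fut4 to Dusp5 (0.970) and Zyx (0.969). These are descriptions: the libraries fall into 4 groups, so an r mostly records a shared order of group means, and no p is given. In the PGCLC libraries CD61 was gated, so the r of Itgb3 with Kit or Brca1 cannot be told apart from that gate.

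Of 518 wells sorted from rOvaries, 462 held a cell that passed the limits (no fewer than 4000 genes and 10000 reads, no more than 5% of reads mitochondrial), and 6 XGFP+ constitutive, 19 XGFPhigh, 16 XGFPintermediate and 15 XGFPlow wells did not. All 24 single-cell ESCs passed. Median reads per cell were 354149, 636623, 645475 and 640902 in the rOvary populations, in this order, and 1103780 in ESCs. Values are CPM, the reads of a gene summed over the cells of a population and scaled to the same total for each population. Each population is 1 sample, so no p is given and intervals cover counting error only. All constitutive cells were sequenced in flow-cell lane 2 with 14 to 16 passing cells of each other population, and the rest in lane 3, so constitutive cells can be set against the others only within lane 2. None of the 10 empty wells held a read of a member. A stricter set, modelled on a germ cell filter of the study whose log base is not given alike throughout its text, required Dazl above 1 as the natural log of reads per 10000 plus 1, which 401 cells passed and 12, 7, 12 and 30 cells of the 4 populations did not.

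**Figure D3:**
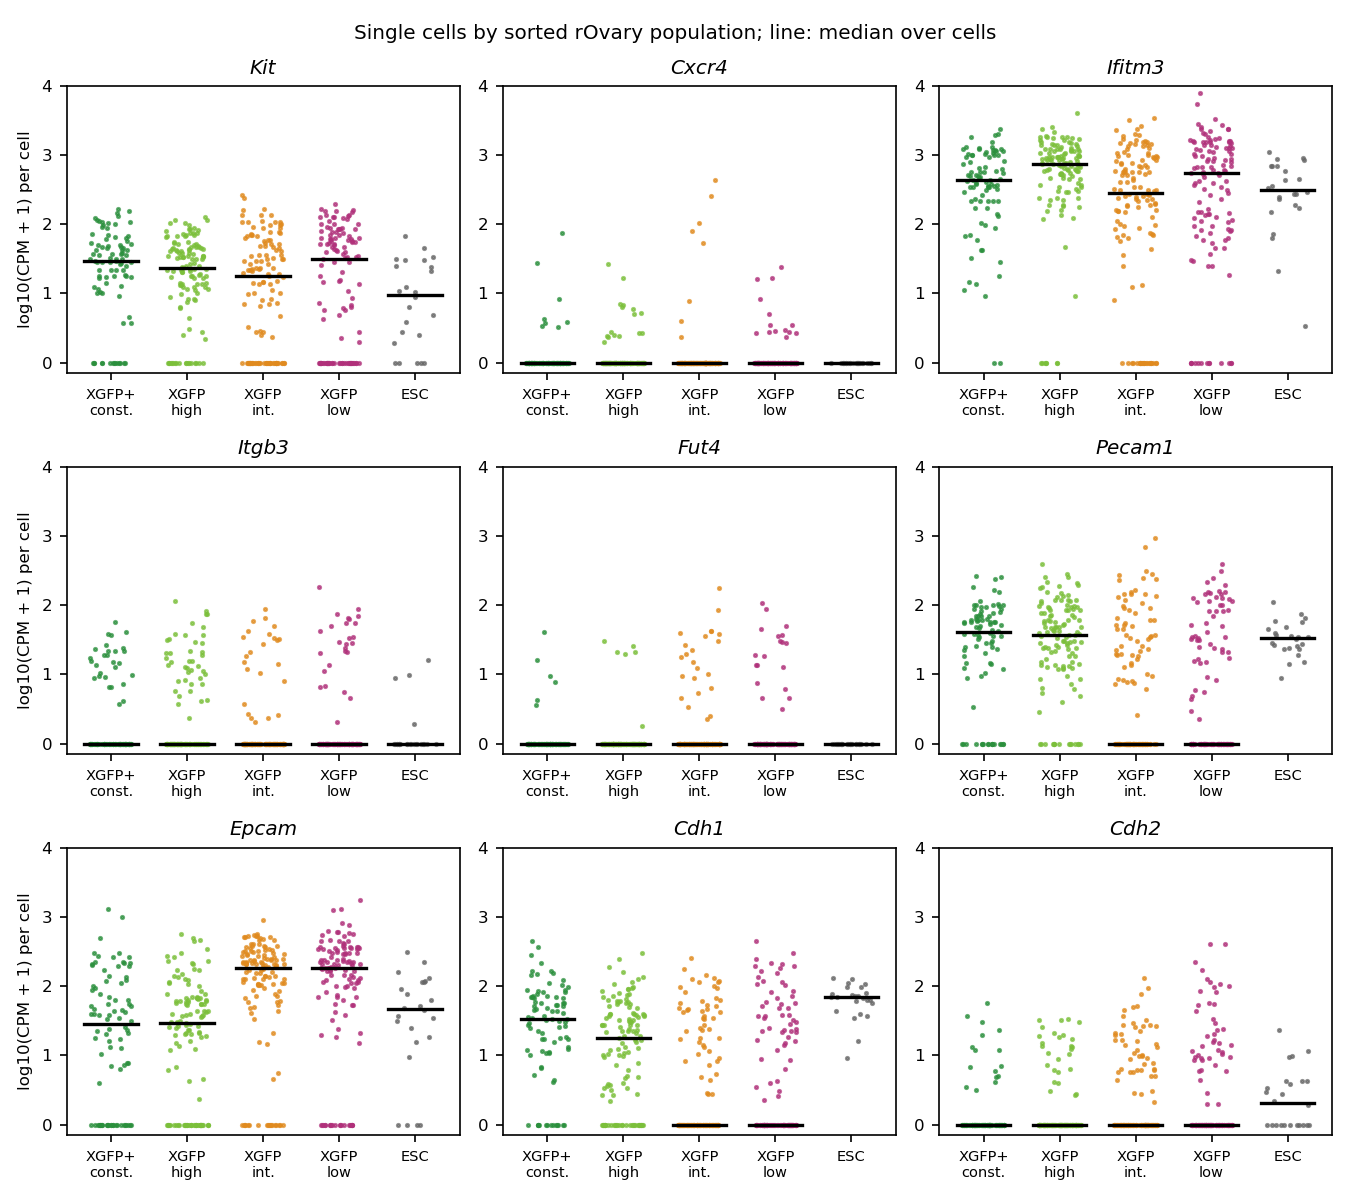
Log10(CPM + 1) of the 9 genes in each passing cell (points, 1 panel per gene) of the 4 rOvary populations and the 24 single-cell ESCs; the line is the median over cells, and points are spread sideways at random. The Epcam median stands at 181 and 182 CPM in XGFPintermediate and XGFPlow cells against 28.5 CPM in XGFPhigh cells, while the Pecam1 and Cdh1 medians of the former are at 0.

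At least 5 CPM on average was reached by 7 of the 9 genes (not Cxcr4 and Fut4). XGFPhigh against XGFP+ constitutive cells put 0 of the 7 past a 2-fold ratio (4.93% of 10195 genes), but this set constitutive cells of lane 2 against XGFPhigh cells mostly of lane 3. Within lane 2, with 14 XGFPhigh cells, 8 members reached 5 CPM on average and 4 of them were past the ratio (27.5% of 9791 genes), all lower in XGFPhigh cells: Cdh1 (11 against 56.4 CPM, a ratio of 0.196), Epcam (35.6 against 93.6, 0.381), Pecam1 (20.4 against 51.1, 0.4) and Cxcr4 (no read against 1.34 CPM). Cxcr4 met the average only through populations outside this comparison. Of its reads in constitutive cells, 73.8% lay in 1 cell without a Dazl read, so no difference is read from it. XGFPintermediate against XGFPhigh cells put 2 of the 7 past it (18.8% of all), and so did XGFPlow against XGFPhigh cells (16.8% of all). The members past it were Epcam and Cdh2, higher in both.

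Epcam was at 93.6 CPM in XGFP+ constitutive, 65.9 in XGFPhigh, 202 in XGFPintermediate and 246 in XGFPlow cells, with 71.7 in ESCs. The ratio to XGFPhigh cells was 3.07 (95% interval 2.98 to 3.17) in XGFPintermediate and 3.74 (3.63 to 3.85) in XGFPlow cells. Most cells took part: the median cell was at 181 and 182 CPM, against 28.5 CPM in XGFPhigh and 27.7 in constitutive cells. Among Dazl-passing cells the ratios were 3.3 and 3.51, in lane 2 alone 5.86 and 7.93, and in lane 3 alone 2.83 and 3.39, the last of these chosen after seeing the data. In constitutive cells 1 cell held 18.8% of the Epcam reads, and the level fell to 51 CPM with the Dazl filter. Cldn6, a claudin of early epithelia, went the same way, with 22.7, 19.7, 62.5 and 112.2 CPM in the 4 populations, in the order given for Epcam.

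Pecam1 and Cdh1 went the opposite way in the share of cells with at least 1 read. For Pecam1 the share was 80.7% (95% exact interval 70.9 to 88.3) in XGFP+ constitutive, 88% (81 to 93.1) in XGFPhigh, 48.4% (39.5 to 57.4) in XGFPintermediate and 45.5% (36.4 to 54.8) in XGFPlow cells. For Cdh1 it was 84.1% (74.8 to 91), 76% (67.5 to 83.2), 40.6% (32 to 49.7) and 45.5% (36.4 to 54.8). These intervals cover counting error only, and constitutive cells compare with the others within lane 2 alone, where XGFPintermediate cells had Pecam1 in 56.2% (29.9 to 80.2) and Cdh1 in 50% (24.7 to 75.3), intervals that overlapped those of the constitutive cells, and XGFPlow cells had them in 40% (16.3 to 67.7) and 20% (4.33 to 48.1). The median XGFPintermediate and XGFPlow cell had no read of either gene, while the median XGFPhigh cell had 35.9 CPM of Pecam1 and 16.6 CPM of Cdh1. Thinning each cell to 100000 reads left shares of 75%, 81.6%, 44.5% and 41.3% for Pecam1 and 77.3%, 64.8%, 32.8% and 38.8% for Cdh1.

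Summed levels of Pecam1 separated the populations less than these shares, at 51.1, 59.9, 51.4 and 37.7 CPM, a ratio to XGFPhigh cells of 0.857 and 0.629. In XGFPintermediate cells 1 cell held 12.8% of its reads, and the level was 34.6 CPM with the Dazl filter, beside a sum of 149 CPM over 6 endothelial markers that was 1.39 CPM with the filter. The share of Dazl-passing cells with a Pecam1 read was still 47.4% in XGFPintermediate and 48.4% in XGFPlow cells, against 87.3% in XGFPhigh and 84.2% in constitutive cells. Summed Cdh1 was at 56.4, 32.6, 18.8 and 30.4 CPM, and at 40.4, 31.3, 20.5 and 21.7 CPM with the Dazl filter. Within lane 2 the summed order turned for XGFPintermediate cells, with 20.4 CPM of Pecam1 and 11 CPM of Cdh1 in the 14 XGFPhigh cells and 47.8 and 27.3 CPM in the 16 XGFPintermediate cells, but not for the 15 XGFPlow cells, at 15.6 and 9.79 CPM. The XGFPhigh share there was 71.4% (41.9 to 91.6) for either gene, too few cells to separate from the XGFPintermediate share. In lane 3 the shares for Pecam1 were 90.1% and 47.3%.

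**Figure D4:**
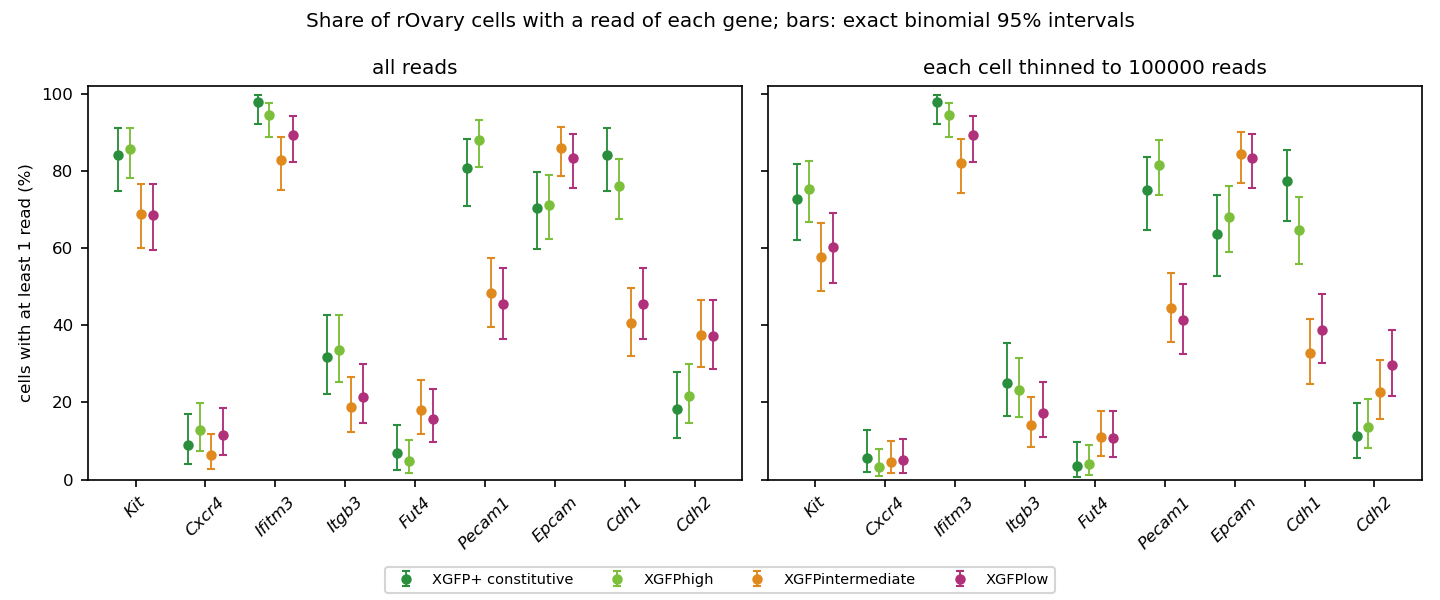
Share of cells (%) with at least 1 read of each gene in the 4 rOvary populations, with exact binomial 95% intervals, for all reads (left) and after thinning every cell to 100000 reads (right). Pecam1 and Cdh1 are found in 76% to 88% of XGFP+ constitutive and XGFPhigh cells and in 40.6% to 48.4% of XGFPintermediate and XGFPlow cells, and Epcam runs the other way.

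Cells without Pecam1 reads were not all the cells without Cdh1 reads. Of the XGFPintermediate cells, 30 had reads of both genes, 32 of Pecam1 alone, 22 of Cdh1 alone and 44 of neither. Of the XGFPlow cells, 32 had both, 23 each had 1 of the genes alone and 43 had neither, and of the XGFPhigh cells 89 had both and 9 had neither. Of the cells with Pecam1, 55 of 62 in XGFPintermediate and 53 of 55 in XGFPlow also had Epcam. Over all cells of these populations, Epcam was found in 85.9% and 83.5%. Epcam without Pecam1 was found in 55 XGFPintermediate and 48 XGFPlow cells, against 10 XGFPhigh cells. Kit was found in 84.1% of constitutive, 85.6% of XGFPhigh, 68.8% of XGFPintermediate and 68.6% of XGFPlow cells, at 40.6, 30.8, 34.2 and 42.4 CPM. So fewer cells had Kit in the last 2 populations while its summed level was not lower than in XGFPhigh cells. Itgb3 was found in 31.8%, 33.6%, 18.8% and 21.5% of cells at 5.38, 7.31, 4.79 and 8.1 CPM, and single-cell ESCs, with the most reads per cell, had it in 16.7%.

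Ifitm3 was found in 97.7%, 94.4%, 82.8% and 89.3% of cells. Its summed level was 587 CPM in XGFP+ constitutive, 824 in XGFPhigh, 579 in XGFPintermediate and 818 in XGFPlow cells, and 378 in ESCs. The spread within a population was wide: the lower and upper quartiles were 83.4 and 1288 CPM in XGFPlow cells, and 375 and 1145 CPM in XGFPhigh cells. Within the Dazl-passing XGFPintermediate cells, Ifitm3 was ordered much like Dppa3, an early germ cell gene (Spearman's rho 0.88), and like Pou5f1 (0.78), and opposite to the meiotic gene Sycp3 (-0.70). The same 3 values were 0.84, 0.61 and -0.46 in the 91 XGFPlow cells, but 0.56, 0.13 and 0.0034 in the XGFPhigh cells and 0.28, 0.38 and -0.16 in the 76 constitutive cells. Pecam1 had a rho with Pou5f1 of 0.66 in XGFPintermediate, 0.67 in XGFPlow, 0.47 in XGFPhigh and 0.45 in constitutive cells. XGFPhigh and XGFPintermediate each had over 100 Dazl-passing cells. The cells of a population share library preparation and differ in depth, and the differences of rho between populations were not tested.

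**Figure D5:**
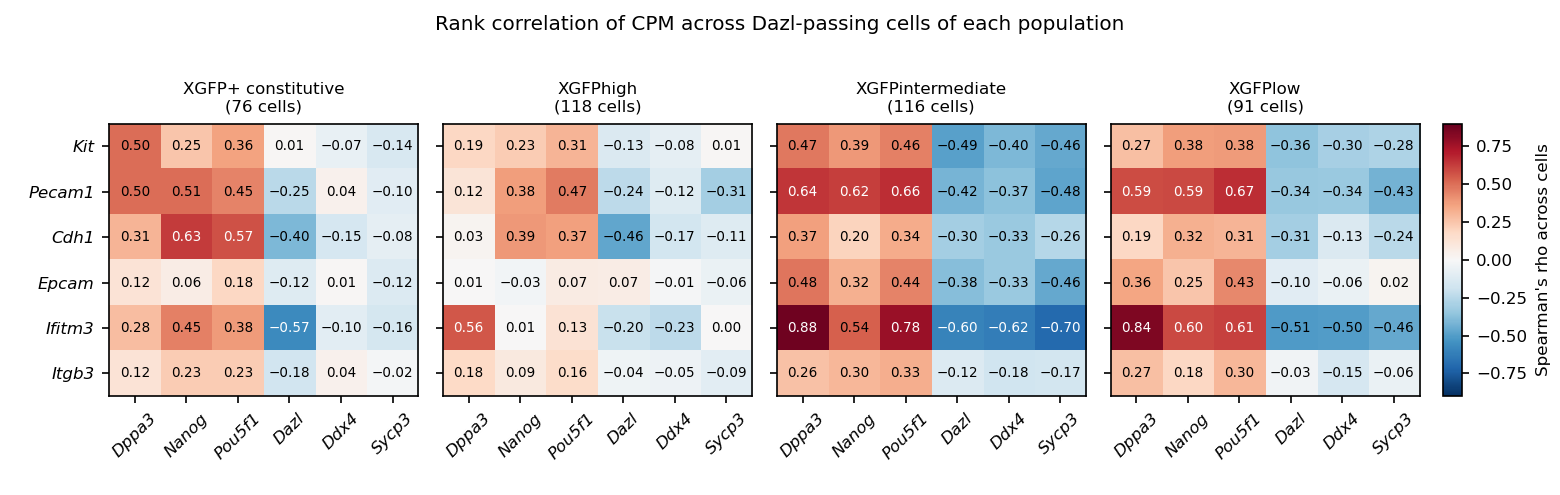
Spearman's rho of CPM between 6 of the surface genes (rows) and 3 early genes (Dppa3, Nanog, Pou5f1) and 3 later germ cell genes (Dazl, Ddx4, Sycp3; columns), across the Dazl-passing cells of each rOvary population. In XGFPintermediate cells Ifitm3 reaches 0.88 with Dppa3 and -0.70 with Sycp3.

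Cdh2 was at 2.54 CPM in XGFP+ constitutive, 3.17 in XGFPhigh, 7.89 in XGFPintermediate and 19.2 in XGFPlow cells, a ratio to XGFPhigh cells of 2.49 (2.16 to 2.88) and 6.05 (5.31 to 6.93). In XGFPlow cells 1 cell held 22.9% of these reads. With the Dazl filter the XGFPlow level fell to 5.41 CPM and its ratio to 1.61, and Cdh2 dropped under the 5 CPM average. In the same XGFPlow cells the 8 gonadal somatic markers in the table summed to 54.8 CPM, and to 12.2 CPM with the filter, with Gata4 then at 0, and their part in the Cdh2 level was not tested. The XGFPintermediate level held, at 7.32 CPM and a ratio of 2.18.

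Cxcr4 and Fut4 were near the limit of these libraries. Cxcr4 was found in 9.09%, 12.8%, 6.25% and 11.6% of cells and in 0 of 24 ESCs, an exact upper limit of 14.2% for cells with a read. Its sum of 11.2 CPM in XGFPintermediate cells, against 1.34, 0.641 and 0.7 in the other populations, came from a few cells. The 3 cells with the most held 56.5%, 20.4% and 12.3% of its 948 reads. None of the 3 had a Dazl read: 2 of them carried 263 and 259 reads of Kdr and 503 and 292 of Cdh5, both endothelial genes, and the other carried 375 reads of Ptprc, a blood cell gene. Among Dazl-passing XGFPintermediate cells Cxcr4 had 7 reads in 3 cells. Fut4 was found in 6.82%, 4.8%, 18% and 15.7% of cells, at 0.763, 0.956, 4.54 and 4.44 CPM, and in 0 of 24 ESCs. Its ratio to XGFPhigh cells was 4.75 (3.72 to 6.14) and 4.64 (3.63 to 6) in XGFPintermediate and XGFPlow cells, and 5.03 and 5.34 CPM were left among Dazl-passing cells. Fut9 ran the other way here too, with 13.6, 8.12, 3.28 and 5.17 CPM and reads in 52.3%, 46.4%, 16.4% and 15.7% of cells.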

How the data were processed

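Bulk RNA was sequenced as stranded total RNA. The authors aligned reads with STAR to mm10 with the strain variants masked, filtered mapping bias with WASP, counted genes with HTSeq 0.6.1 and deposited counts divided by DESeq2 1.16 size factors, a normalized signal. Single cells were prepared with SMART-Seq, which has no molecular identifiers, and the authors deposited raw read counts per gene and well.

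Here, genes with a mean normalized count above 10 were tested on log2(value + 1) with limma 3.58.1 (limma-trend, two-sided, Benjamini-Hochberg FDR below 0.001) in R 4.3.3, with all 16 libraries in 1 model. Whole reads were recovered from the bulk values (100% within 0.01 of a whole number) and tested with edgeR 4.0.16 and DESeq2 1.42.0 as alternatives. Replicate numbers were checked for pairing: same-numbered XGFP- and XGFP+ libraries deviated together from their group means (r 0.135 to 0.307 in 4 pairs). The main fit did not use this pairing, and the fit with the replicate number as a block is an alternative. Itgb3 was described without a test where sorted met unsorted cells, whereas Fut4 and Fut9 were tested there although SSEA1 was gated. Single-cell counts were summed per population and given as CPM, with exact Poisson and Clopper-Pearson 95% intervals. No doublet caller was run. The members and gene lists were chosen with earlier results of these data known. Every member is named. Of each other list, at most 4 genes could be named, those with the largest absolute log2 fold change among the called genes with a mean above 100, and for each member the 2 genes of highest Pearson's r. Cxcl12, Ackr3, Itgb8, Cdh5 and the genes of single cells other than the members were named after their values were seen. Allele-specific tables were not used. The test scripts were tested on simulated data.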

Additional observations from a re-analysis of the deposited data

How the results depend on the processing

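Of 892 recomputed bulk values for 50 results, 841 kept their direction and their side of the threshold, 39 were no longer called, 12 became called and 0 reversed. With the replicate number as a block, 2 of 50 calls were lost, both of Fut4 (XGFP- PGCLCs against EpiLCs, FDR 0.00198, and XGFP+ PGCLCs against ESCs, 0.00222, by limma). Outside the PGCLC populations, same-numbered libraries of different groups did not deviate together in every pair (r -0.0105 to 0.16). Requiring an absolute log2 fold change above 1 left 1 of the 3 called genes between XGFP- and XGFP+ PGCLCs. Leaving out 1 library at a time gave 7 to 7 called genes for EpiLCs against ESCs, 8 to 8 for XGFP+ PGCLCs and 6 to 7 for XGFP- PGCLCs against EpiLCs, 5 to 7 and 6 to 8 for the same populations against ESCs, and 2 to 3 between them. Cxcr4 was called between EpiLCs and ESCs under quantile normalization (log2 -1.02, limma FDR 0.000297), and Cdh2 was not with these groups alone (0.00102).

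In single cells, members past a 2-fold ratio numbered 4 in flow-cell lane 2 alone and 1 at a 1.5-fold ratio for XGFPhigh against XGFP+ constitutive cells (0 otherwise). The 4 include Cxcr4, which met the average only through other populations. For XGFPintermediate against XGFPhigh cells they numbered 2 as reported, 1 with the Dazl filter, 5 in lane 2 alone, 3 in lane 3 alone and 4 at a 1.5-fold ratio. For XGFPlow against XGFPhigh cells they numbered 2 as reported and in lane 3 alone, 1 with the Dazl filter, 3 in lane 2 alone and 3 at a 1.5-fold ratio. The cause was not tested. Lane 2 holds 14 to 16 cells of 3 populations, and the separate result of lane 3 alone was added after seeing the data.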

Other observations

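Among other surface genes of stem and germ cells, 6 of 7 were called in XGFP- against XGFP+ PGCLCs, 2 higher and 4 lower (limma-trend), beside 23.8% of all genes. Podxl, which codes for the sialomucin podocalyxin, was at 83.3 in XGFP- and 357 in XGFP+ PGCLCs on average (log2 -2.08), against 4489 in EpiLCs. Cd24a, a mucin-like surface glycoprotein, was higher in XGFP- PGCLCs (6654 against 2398, log2 1.47), and Cd38 was lower (239 against 594, log2 -1.32). Of the 10 epithelial junction genes tested, 3 were called, 2 higher and 1 lower in XGFP- PGCLCs, beside 23.8% of all genes. Those higher were Cldn7 (log2 1.14) and F11r (log2 0.68). In the same libraries 4 of 9 germ cell markers were called, all lower in XGFP- PGCLCs. This list mixes early genes such as Prdm1 and Tfap2c, later genes such as Ddx4 and Sycp3, and pluripotency genes such as Nanog. The count is therefore not a measure of germ cell identity. The paper reports early germ cell genes, among them Prdm1, Prdm14 and Tfap2c, as higher in XGFP- PGCLCs. It used DESeq2 at an FDR below 0.001, and quantitative RT-PCR for selected early germ cell genes. The list was counted here with limma-trend alone, which called 23.8% of all genes in this comparison where DESeq2 run here called 31%. No gene of the list was called higher by limma-trend, and the reason for this difference was not tested.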
